A study of Mus musculus with 12 samples.

Results

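The 10 genes described here encode plasma membrane amino acid transporters or their subunit, *Slc7a1*, *Slc7a3*, *Slc3a2*, *Slc7a5*, *Slc7a8*, *Slc7a11*, *Slc1a4*, *Slc1a5*, *Slc38a2* and *Slc6a9*. They are 10 of the 55536 genes in the tables and were taken by gene symbol. They were selected on the comparison of affected with unaffected thyroids in these same libraries, so for them that comparison is a description and supports nothing. The data are RNA sequencing of thyroids from 12 C57BL/6N mice, with 1 library per mouse. The 5 affected mice were C57BL/6NTac (B6NTac) animals from Taconic with thyroid dysplasia. Of the 7 unaffected mice, 6 were C57BL/6NCrl (B6NCrl) animals from Charles River (replicates 21 to 26) and 1 (replicate 14) was a knockout (KO) animal from Taconic, whose targeted gene the sources used here do not name. In the study the dysplasia was traced to a LINE-1 retrotransposon in an intron of *Tg*, the gene of thyroglobulin. Its RNA sequencing had most *Tg* reads across this intron skip the next exon in every affected mouse, and hardly any in unaffected mice. The labels give no LINE-1 genotype, age, sex or batch for these 12 mice. Colony and phenotype therefore split the mice in the same way, apart from the unaffected B6NTac mouse, and cannot be told apart in the other 11.

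Amino acid transporters of the SLC families move amino acids across the plasma membrane for protein synthesis, for glutathione synthesis and as exchange partners of one another. The protein of *Slc3a2* (CD98, 4F2hc) is a heavy chain that brings a light chain of the SLC7 family to the cell surface, and the light chain sets which amino acids are exchanged. In the thyroid, the carrier encoded by *Slc7a8* also accepts iodothyronines, and the follicular cell makes large amounts of 1 secreted glycoprotein, thyroglobulin. Many of these genes are known targets of the transcription factor ATF4, which acts in the amino acid response and downstream of the endoplasmic reticulum stress kinase PERK.

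Total estimated counts were between 20170500 and 23319948 in affected mice and between 11434901 (replicate 14) and 22401136 in unaffected mice. Levels are in CPM (counts scaled to the library total by TMM factors) where a gene is compared between mice, and in FPKM (fragments per length and library size) where genes are compared with each other. All 10 genes passed the filter on low counts, as did 19661 genes in all. *Tg*, the defining gene of the follicular cell, was at 171208 CPM ± 62571.8 (SD, n = 5) in affected and 241191 ± 32315.2 (SD, n = 7) in unaffected thyroids. The difference, -0.49 on the log2 scale, did not pass the threshold (edgeR quasi-likelihood test, standard error 0.21, adjusted p = 0.14). All 12 listed follicular cell markers were detected. The same libraries hold C cell, parathyroid, muscle, adipose, endothelial and blood cell RNA in amounts that differ between mice. In such whole-tissue samples fewer cells of a type and less RNA per cell cannot be told apart. Replicates are different mice. An error after ± is the SD between mice for a level or share and the standard error of the fit for a log2 fold change.

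The genes lie on 10 different chromosomes of GRCm38. Among the pairs within a family, *Slc7a1* and *Slc7a3* were the closest, with 60.5% identity over 602 aligned amino acids of their longest reading frames. *Slc1a4* and *Slc1a5* shared 59.9% and *Slc7a5* and *Slc7a8* shared 54.3%, whereas the light chain *Slc7a5* and the cationic carrier *Slc7a1* shared 26.4%. Of the 10 genes, 7 had promoter windows in the RefSeq table for GRCm38.p6 (10 windows, each from 250 bases before to 50 bases after an annotated start). *Slc7a3*, *Slc7a5* and *Slc1a5* had no window and were not searched. The windows were searched on both strands for the core of the amino acid response element, TGATGNAA, the motif class bound by ATF4 with its partners. It was found in 2 of the 10 windows, those of *Slc7a11* and *Slc1a4*, and in 3.97% of all 32851 windows. The stretches that hold it are shown because they are the only matches to this core among the 10 windows, with the matches in capitals (TTGCATCA is the same core read on the other strand).
Slc7a11: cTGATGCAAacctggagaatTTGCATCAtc
Slc1a4: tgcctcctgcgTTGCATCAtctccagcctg
The first stretch is chr3:50443651-50443680 on the minus strand and lies 67 to 38 bases before the start of *Slc7a11*, with a match on each strand. The second is chr11:20332699-20332728 on the minus strand, from 15 bases before the start of *Slc1a4* to 15 bases into the transcribed part. The UPR element TGACGTGG (0.676% of all windows), the cAMP response element TGACGTCA (1.79%) and the ER stress response element (0.119%) were in none of the 10 windows. A match describes letters only, and binding was not measured.

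Across the 10 genes, the log2 fold change of affected against unaffected mice was above 0 for 10 and ranged from 0.30 to 4.93 with a median of 0.78, beside a median of 0.01 over all genes tested. Of the 10, 6 were past an adjusted p of 0.05 and higher, where 7.63% of all genes tested were called higher and 6.10% lower, and none of the 10 was called lower. For 3 of the 10, the lowest affected mouse lay above the highest unaffected mouse, which was so for 3.78% of all genes tested (the reverse for 3.36%). The genes were chosen with this contrast known, so nothing is read from these counts. When library totals without *Tg* were used for scaling, the median of all genes moved to -0.13 and the genes called over the whole table changed from 1500 higher and 1199 lower to 604 higher and 1709 lower. Under that scaling 4 of the 10 genes were past the threshold, and *Slc38a2* and *Slc6a9* no longer were. Both also missed it with unfiltered log2(FPKM + 1), without affected replicate 3, and without unaffected replicates 14 and 21. *Slc38a2* further missed it with only B6NCrl controls, without affected replicate 6, and without unaffected replicate 22, 24 or 26. *Slc6a9* further missed it without affected replicate 5.

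**Figure D1:**
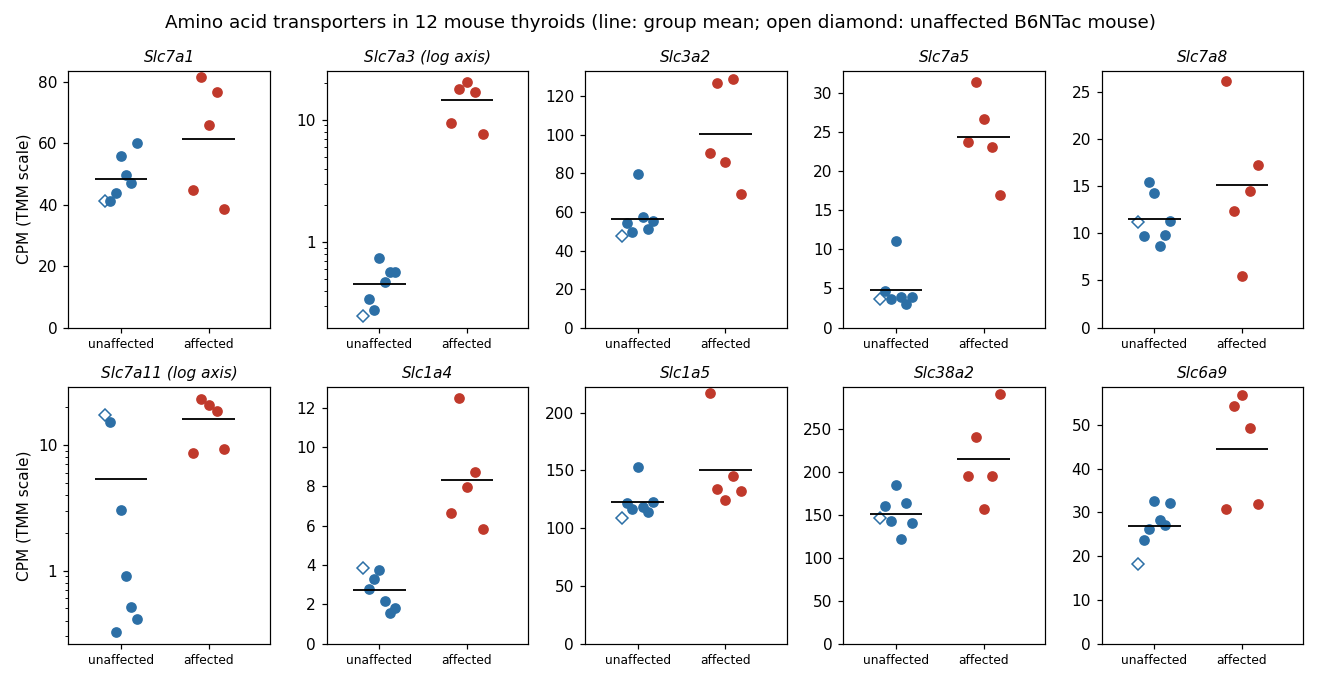
CPM of each of the 10 transporters (y axis, TMM scale; logarithmic for *Slc7a3* and *Slc7a11*) in the 7 unaffected (blue) and 5 affected mice (red), 1 point per mouse, with the group mean as a line and the unaffected B6NTac mouse as an open diamond. *Slc7a3*, *Slc7a5* and *Slc1a4* do not overlap between the groups, and *Slc7a11* is high in 2 of the unaffected mice.

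The cationic amino acid transporters carry arginine, lysine and ornithine. *Slc7a3* (CAT3, ENSMUSG00000031297, X chromosome, 101079210 to 101086020, minus strand) was low in unaffected thyroids, with a lowest value of 0.250, a median of 0.476 and a highest value of 0.738 CPM, and the lowest of these was 3 counts. In affected replicates 1, 3, 4, 5 and 6 it was at 9.49, 17.8, 20.2, 16.8 and 7.67 CPM. The groups did not overlap and their means differed 31.3-fold, or by 4.93 ± 0.31 (standard error) on the log2 scale, the largest of the 10. *Slc7a1* (CAT1, ENSMUSG00000041313, chromosome 5, 148327410 to 148399904, minus strand), the widely expressed carrier of the family, was at 44.8, 81.4, 65.8, 76.8 and 38.5 CPM in affected replicates 1, 3, 4, 5 and 6. Unaffected mice lay between 41.1 and 60.0 CPM with a median of 46.9. Replicates 3, 4 and 5 were above all unaffected mice and replicate 6 was below them, and the log2 fold change was 0.35 ± 0.18, or 0.22 without replicate 3. Per length, *Slc7a1* was at 8.14 FPKM ± 1.19 (SD, n = 7) and *Slc7a3* at 0.215 FPKM ± 0.0990 in unaffected mice. In affected mice they were at 10.4 FPKM ± 3.20 (SD, n = 5) and 6.24 FPKM ± 2.40.

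The heavy chain gene *Slc3a2* (ENSMUSG00000010095, chromosome 19, 8706882 to 8723369, minus strand) was at 90.7, 127, 86.1, 129 and 69.3 CPM in affected replicates 1, 3, 4, 5 and 6. In unaffected mice it ranged from 47.8 to 80.0 CPM with a median of 54.5. The highest unaffected value, in replicate 23, was above affected replicate 6, and the other 4 affected mice were above all unaffected mice. The log2 fold change was 0.83 ± 0.17.

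Among its light chains, *Slc7a5* (LAT1, ENSMUSG00000040010, chromosome 8, 121881150 to 121907694, minus strand) exchanges large neutral amino acids such as leucine and tryptophan. It was at 23.8, 31.4, 26.7, 23.0 and 16.9 CPM in affected replicates 1, 3, 4, 5 and 6, and between 3.06 and 11.0 CPM in unaffected mice, with a median of 3.86. The groups did not overlap, and replicate 23 was again the highest unaffected mouse. The log2 fold change was 2.33 ± 0.30. *Slc7a8* (LAT2, ENSMUSG00000022180, chromosome 14, 54722209 to 54781946, minus strand), with a wider range of neutral substrates, was at 26.2, 12.3, 5.42, 14.4 and 17.3 CPM in the affected mice in the same order. Unaffected mice ranged from 8.68 to 15.5 CPM with a median of 11.2. The affected group thus held both the highest and the lowest of the 12 values, and the log2 fold change was 0.40 ± 0.29. It was 0.10 without affected replicate 1 and 0.63 without affected replicate 4. The summed adipose markers were also highest in affected replicate 1 (2720 CPM) and lowest in replicate 4 (361 CPM), beside 375 to 868 CPM in unaffected mice. Of the 6 adipose markers, none was called higher or lower and none was at 0 in all mice. The part of adipose RNA in the *Slc7a8* values was not tested.

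*Slc7a11* (xCT, ENSMUSG00000027737, chromosome 3, 49892526 to 50443614, minus strand) imports cystine in exchange for glutamate and so feeds glutathione synthesis. It was at 8.62, 23.4, 20.9, 18.6 and 9.27 CPM in affected replicates 1, 3, 4, 5 and 6. In the unaffected mice it was at 17.3 CPM in replicate 14, 15.2 in replicate 21 and 3.05 in replicate 23, and between 0.324 and 0.900 CPM in the other 4. The groups overlapped through replicates 14 and 21, and the log2 fold change was 1.60 ± 0.96, the widest error of the 10. The summed T cell markers were at 291 CPM in replicate 14 and 297 CPM in replicate 21, and between 5.27 and 6.30 CPM in the other unaffected mice. In affected mice the T cell sum was 49.7 and 53.7 CPM in replicates 1 and 3 and between 3.59 and 5.48 CPM in the other 3. None of the 5 tested T cell markers was called and none of the 8 listed was at 0 in all mice. Without unaffected replicates 14 and 21 the log2 fold change of *Slc7a11* was 3.94. With the T cell marker mean as a covariate it was 3.11. Both fits were chosen after the data were seen, and replicates 14 and 21 held the highest unaffected values. Nothing is read from these fits, and the part of T cell RNA in the *Slc7a11* values was not tested.

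**Figure D2:**
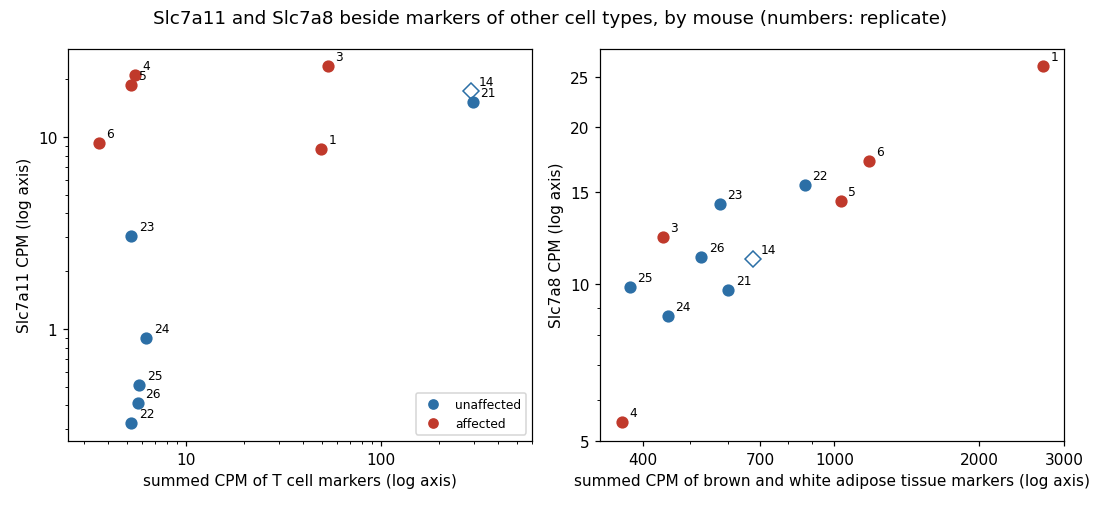
Left, *Slc7a11* CPM against the summed CPM of 8 T cell markers, and right, *Slc7a8* CPM against the summed CPM of 6 adipose markers, 1 point per mouse with its replicate number, on log axes (red, affected; blue, unaffected; open diamond, unaffected B6NTac mouse). Unaffected replicates 14 and 21 lie apart at T cell sums of 291 and 297 CPM with *Slc7a11* at 17.3 and 15.2 CPM, and affected replicates 1 and 4 hold the highest and the lowest values in the right panel.

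Summed over 6 light chains that pair with *Slc3a2* (*Slc7a5*, *Slc7a6*, *Slc7a7*, *Slc7a8*, *Slc7a10* and *Slc7a11*), the level was 24.2 FPKM ± 6.00 (SD, n = 5) in affected and 12.7 FPKM ± 2.64 (SD, n = 7) in unaffected mice. Light chain level per heavy chain level was 0.480 ± 0.108 in affected and 0.438 ± 0.108 in unaffected mice, a difference smaller than the SD of either group. *Slc7a5* was 29.9% ± 6.84 of the light chain FPKM in affected and 11.0% ± 5.09 in unaffected mice, ranging from 23.4% to 40.0% and from 6.45% to 21.7%. *Slc7a6* and *Slc7a8* were the main light chains of unaffected thyroids, at 34.0% ± 4.36 and 23.8% ± 4.70, and were at 22.2% ± 6.81 and 16.0% ± 6.90 in affected mice. Their mean levels were not lower there, with *Slc7a6* at 5.40 FPKM ± 2.13 in affected and 4.28 FPKM ± 0.780 in unaffected mice and *Slc7a8* at 3.96 FPKM ± 2.17 and 2.97 FPKM ± 0.578, so the smaller shares come with a larger sum. The ratio of *Slc7a5* to *Slc7a8* FPKM was between 1.05 and 5.44 in affected mice and between 0.254 and 0.915 in unaffected mice, so it did not overlap. These ratios contain the values by which *Slc7a5* and the other genes were chosen and are given without a test.

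**Figure D3:**
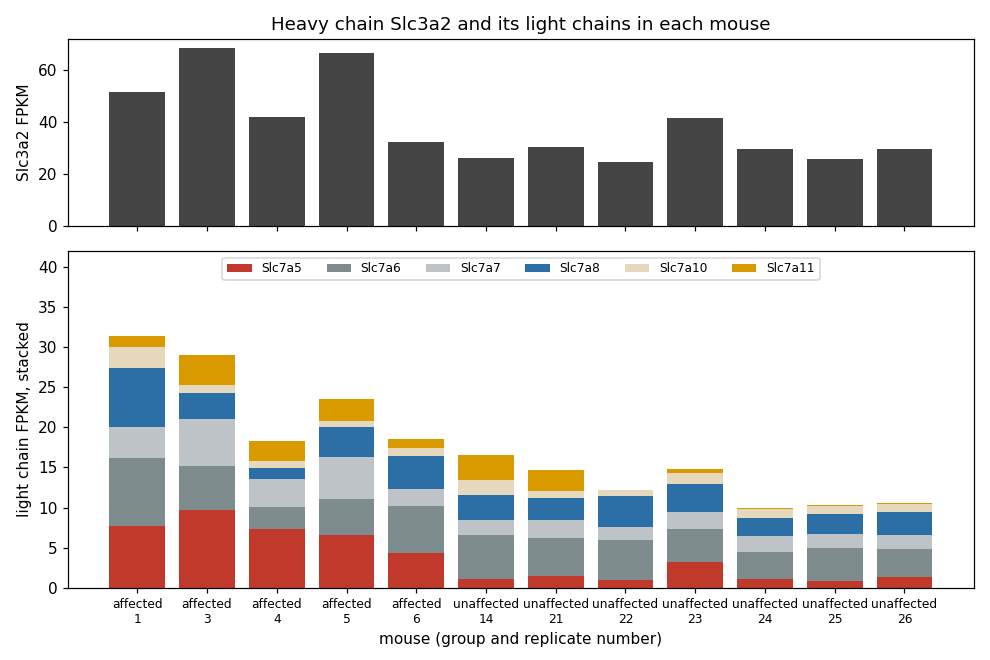
FPKM of the heavy chain *Slc3a2* (upper bars) and of its 6 light chains stacked on one another (lower bars) in each of the 12 mice, named by group and replicate. The *Slc7a5* segment is between 4.33 and 9.69 FPKM in affected mice and between 0.848 and 3.22 FPKM in unaffected mice.

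Of the sodium-dependent carriers of neutral amino acids, *Slc1a4* (ASCT1, ENSMUSG00000020142, chromosome 11, 20302180 to 20332713, minus strand) carries alanine, serine, cysteine and threonine, and its promoter window holds the match shown above. It was at 6.65, 12.5, 7.96, 8.73 and 5.85 CPM in affected replicates 1, 3, 4, 5 and 6, and between 1.59 and 3.84 CPM in unaffected mice, with a median of 2.79. The groups did not overlap, and the log2 fold change was 1.61 ± 0.25. *Slc1a5* (ASCT2, ENSMUSG00000001918, chromosome 7, 16781340 to 16798274, plus strand), which also carries glutamine, was at 217, 134, 124, 145 and 132 CPM in the affected mice in the same order. Unaffected mice ranged from 109 to 153 CPM with a median of 118, and the log2 fold change was 0.30 ± 0.13. Affected replicate 1 alone was above all unaffected mice, and without it the log2 fold change was 0.13.

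*Slc38a2* (SNAT2, ENSMUSG00000022462, chromosome 15, 96687392 to 96699730, minus strand), a system A carrier of small neutral amino acids, was at 195, 240, 157, 195 and 290 CPM in affected replicates 1, 3, 4, 5 and 6. Unaffected mice ranged from 122 to 185 CPM with a median of 146. All affected mice but replicate 4 were above the unaffected range, and the log2 fold change was 0.51 ± 0.14. In replicate 6, where *Slc38a2* was highest, the summed skeletal muscle markers were at 26800 CPM, beside 11.2 to 1180 CPM in the other affected and 1.38 to 11300 CPM in unaffected mice. None of these 6 markers was called, and the part of muscle RNA in the *Slc38a2* values was not tested. *Slc6a9* (GLYT1, ENSMUSG00000028542, chromosome 4, 117834506 to 117875198, plus strand), the sodium- and chloride-dependent glycine transporter, was at 30.7, 54.3, 56.7, 49.2 and 31.8 CPM in affected replicates 1, 3, 4, 5 and 6. It lay between 18.1 and 32.6 CPM in unaffected mice, with a median of 27.2. Replicates 3, 4 and 5 were above all unaffected mice, and the log2 fold change was 0.73 ± 0.18. Exons of *B4galt2*, *Ccdc24* and *Gm17114* on the opposite strand cover 30.2% of the exon length of *Slc6a9*. The other 9 genes share no exon with another gene. The sources used here do not state whether counting used strand.

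The unaffected B6NTac mouse, replicate 14, was set beside the range of the 6 B6NCrl mice. For *Slc7a1*, *Slc7a3*, *Slc3a2*, *Slc1a5* and *Slc6a9* it was below them, at 41.1, 0.250, 47.8, 109 and 18.1 CPM. For *Slc7a11* and *Slc1a4* it was above them, at 17.3 and 3.84 CPM. For *Slc7a5*, *Slc7a8* and *Slc38a2* it was within their range. This mouse was also the KO animal, its library was the shallowest and its summed T cell markers were at 291 CPM. With 1 such mouse, colony, knockout, cell make-up and mouse cannot be told apart.

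Ordered by mean FPKM in unaffected thyroids, *Slc1a5* was highest at 52.3 ± 5.24 (SD, n = 7), followed by *Slc38a2* at 30.4 ± 4.28, *Slc3a2* at 29.6 ± 5.68 and *Slc6a9* at 8.81 ± 1.69. Then came *Slc7a1* at 8.14 ± 1.19, *Slc7a8* at 2.97 ± 0.578, *Slc7a5* at 1.41 ± 0.818, *Slc7a11* at 0.933 ± 1.34, *Slc1a4* at 0.709 ± 0.242 and *Slc7a3* at 0.215 ± 0.0990. The *Slc7a11* mean rests on unaffected replicates 14 and 21, and its median of 0.0954 FPKM was below the 0.237 FPKM of *Slc7a3*. Of the 9 neighbouring pairs, 5 kept this order of the means in all 7 mice. *Slc38a2* and *Slc3a2* kept it in 4 of 7 mice, *Slc6a9* and *Slc7a1* in 6, *Slc7a5* and *Slc7a11* in 5, and *Slc7a11* and *Slc1a4* in 2, so over the 7 mice these neighbours did not differ beyond their spread. In the 6 B6NCrl mice alone, *Slc6a9* was above *Slc7a1* in all 6, by 0.181 ± 0.0785 (SD) on the log2 scale. In affected mice the order of the means was *Slc1a5* (62.4 FPKM), *Slc3a2* (52.1), *Slc38a2* (43.3), *Slc6a9* (14.0), *Slc7a1* (10.4), *Slc7a5* (7.13), *Slc7a3* (6.24), *Slc7a8* (3.96), *Slc7a11* (2.26) and *Slc1a4* (2.13). Among 50 plasma membrane and vesicular amino acid transporters ranked by mean FPKM, *Slc7a3* stood 37th in unaffected and 17th in affected mice, and *Slc7a5* 29th and 15th. *Slc43a2* (67.3 FPKM) and *Slc38a6* (58.1 FPKM) were the only transporters of that list above *Slc1a5* in unaffected mice (both named after their values were seen).

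**Figure D4:**
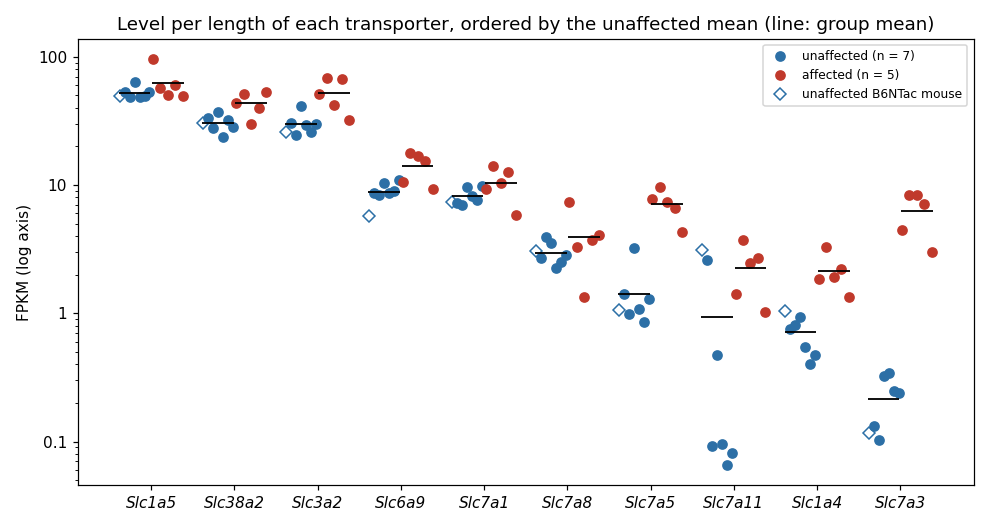
FPKM (log axis) of the 10 transporters in the 7 unaffected (blue) and 5 affected mice (red), 1 point per mouse, ordered by the unaffected mean, with group means as lines. The unaffected means fall from 52.3 FPKM for *Slc1a5* to 0.215 FPKM for *Slc7a3*, which is at 6.24 FPKM in affected mice.

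Within the groups, the 10 genes did not all vary together. Among affected mice, replicate 3 was highest for 4 genes and never lowest, and replicate 6 was lowest for 5. Among unaffected mice, replicate 23 was highest for 6 genes and replicate 14 lowest for 5. After the group means were taken off, the log2 CPM of *Slc7a3* and *Slc6a9* had a Pearson correlation of 0.91 over the 12 mice, *Slc7a1* and *Slc6a9* of 0.88, and *Slc7a1* and *Slc7a3* of 0.87. These values are descriptions across mice that share library depth and cell make-up. By the same measure, the genes outside the 10 most like *Slc7a3* were *Reep3* (0.97), *Etv6* (0.96) and *Sdc4* (0.96). Those most like *Slc7a5* were *St3gal4* (0.96), *Golm1* (0.95) and *Fxyd3* (0.94), and for the last 2 the value was 0.68 and 0.66 without the 2 mice farthest from the median. Those most like *Slc7a8* were *1700037H04Rik*, *Slc27a2* and *Slc25a44* (0.96 each). For *Slc7a11*, added after its values were seen, they were *Endou* (0.96), *Cenpe* (0.95) and *Prss16* (0.95), the last a serine protease known from the thymus. Between the groups these 3 did not follow *Slc7a11*, with log2 fold changes of -2.26 for *Endou*, 0.10 for *Cenpe* and -2.80 for *Prss16*.

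The other amino acid transporters were counted from lists of whole families, less the 10 described here. Because those 10 were chosen on this contrast, the rest can hold fewer higher genes than whole families would. Of 56 listed, 43 passed the filter on low counts, and 6 of these (14.0%) were called in the test over all genes, 3 higher and 3 lower, beside 13.7% of all genes tested. The median log2 fold change of the 43 was 0.01, the same as over all genes. The 27 tested plasma membrane and vesicular transporters held 2 higher and 3 lower, the 6 lysosomal transporters 1 higher, and none of the 10 mitochondrial carriers was called. *Slc7a7* (y+LAT1), a light chain that exports cationic amino acids, rose from a median of 3.97 CPM (3.56 to 4.77) in unaffected to 7.85 CPM (5.24 to 11.5) in affected mice. Its groups did not overlap, and its log2 fold change was 1.07 ± 0.18 (edgeR quasi-likelihood test, adjusted p = 0.0021). Macrophages are known to express *Slc7a7*, and 4 of the 8 macrophage markers were called higher, with sums between 198 and 291 CPM in affected and between 92.2 and 208 CPM in unaffected mice. Their part in the *Slc7a7* values was not tested.

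*Slc38a7* (SNAT7), which exports glutamine from lysosomes, rose by 0.50 ± 0.10 on the log2 scale (adjusted p = 0.00593), from 9.59 to 13.0 CPM in unaffected to 14.4 to 17.9 CPM in affected mice. *Slc38a1* (SNAT1), a system A carrier from the same family as *Slc38a2*, was lower, with 40.4 to 62.4 CPM in affected and 70.2 to 94.7 CPM in unaffected mice and a log2 fold change of -0.61 ± 0.10 (adjusted p = 0.00242). *Slc6a17* (NTT4), a vesicular transporter of neutral amino acids, was also lower, with 37.5 to 73.1 CPM in affected and 74.9 to 115 CPM in unaffected mice and a log2 fold change of -0.80 ± 0.16 (adjusted p = 0.00614). The groups did not overlap for these 3 genes. *Slc1a2* (GLT-1, a glutamate transporter) and *Slc6a19* (B0AT1, a neutral amino acid transporter of gut and kidney) were low and overlapped between the groups. Their log2 fold changes were 1.16 ± 0.36 (adjusted p = 0.0491) and -1.42 ± 0.41 (adjusted p = 0.0401). *Slc6a19* was at 10.6 and 12.6 CPM in unaffected replicates 14 and 21, the mice with the high T cell sums, and between 3.23 and 4.39 CPM in the other unaffected mice. Without these 2 mice its log2 fold change was -0.73 (edgeR quasi-likelihood test, adjusted p = 0.0552). *Slc1a2* stayed past the threshold in 4 of the 20 distinct alternative analyses that gave it a value and *Slc6a19* in 10 of 23.

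**Figure D5:**
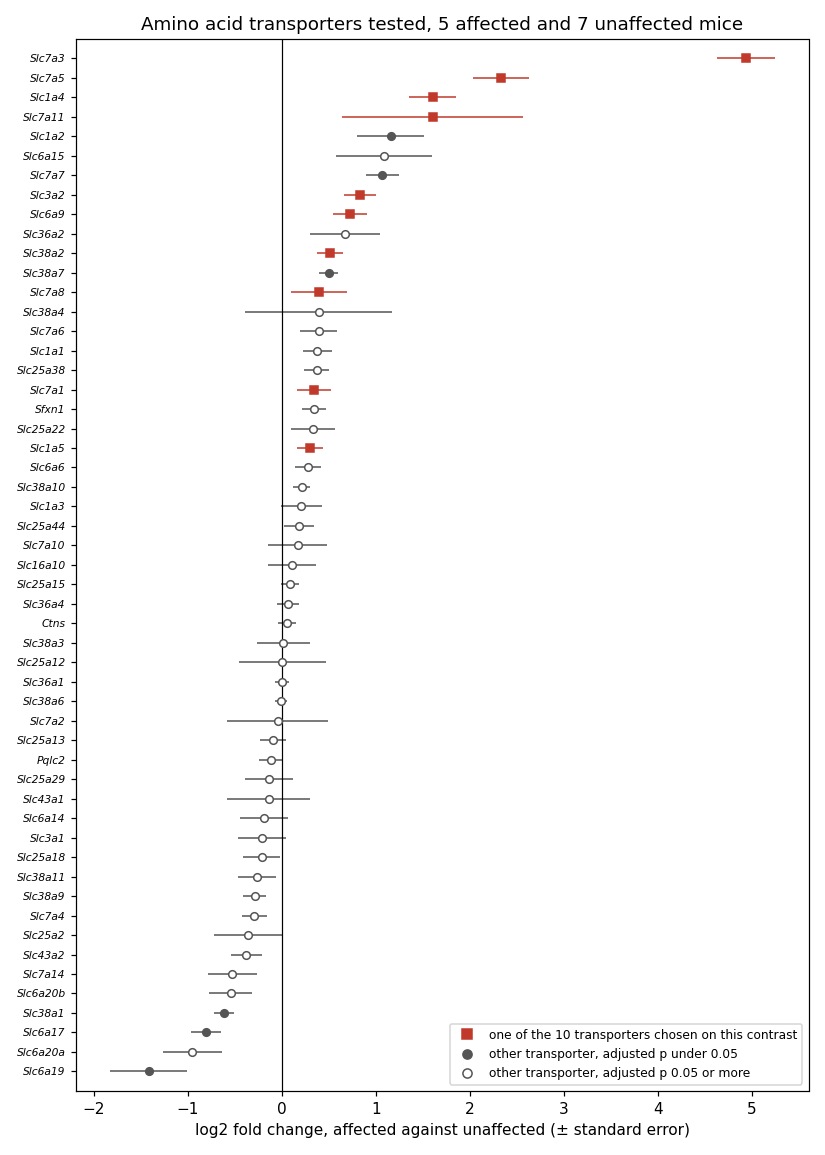
Log2 fold change of affected against unaffected mice with its standard error (x axis) for the 10 chosen transporters (red squares, chosen on this contrast and not marked by test) and the 43 other amino acid transporters tested (grey circles, filled where the adjusted p was under 0.05). The red squares span 0.30 to 4.93, and the circles span -1.42 to 1.16 with 6 filled.

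The tables also give a measure that was not used to choose the genes, the transcript length implied by the count, the FPKM value and the total of a mouse, which shifts when the mix of transcripts of a gene shifts. Over the 12458 genes with at least 50 counts in every mouse, 45 (0.361%) had a different implied length between the groups (limma, adjusted p under 0.05). Of the 10 transporters, 6 had enough counts and 0 of these were called, while 2, *Slc1a5* and *Slc3a2*, had an unadjusted limma p under 0.05. For *Slc1a5* the length was 2420 bp ± 56.7 (SD, n = 5) in affected and 2339 bp ± 53.6 (SD, n = 7) in unaffected mice, a difference of 81.2 bp (limma adjusted p = 0.382, exact two-sided permutation test p = 0.029, unadjusted, with 0.00126 the smallest possible). For *Slc3a2* the difference was 24.8 bp (limma adjusted p = 0.442, exact permutation p = 0.0518). For *Slc7a1*, *Slc7a8*, *Slc38a2* and *Slc6a9* the differences were -83.0, -6.44, -56.7 and 102.3 bp, with exact permutation p values of 0.641, 0.905, 0.0694 and 0.173. *Slc7a3*, *Slc7a5*, *Slc7a11* and *Slc1a4* had too few counts in at least 1 mouse for this comparison.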

How the data were processed

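Per the paper's methods, total RNA depleted of ribosomal RNA was sequenced on an Illumina NextSeq. Reads were aligned to an Ensembl mouse genome reference and quantified in OmicSoft Array Studio. The authors deposited estimated counts per gene without normalization, together with FPKM per gene. Whole numbers made up 81.0% to 84.7% of a mouse's estimated counts, with zeros counted as whole.

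Estimated counts were rounded, filtered (edgeR filterByExpr, minimum count 10), TMM-scaled and tested with edgeR 4.0.16 (R 4.3.3, quasi-likelihood, robust, Benjamini-Hochberg threshold 0.05), affected against unaffected, without covariates. Standard errors come from the log2 fold change and the square root of F, as their quotient, and log2 CPM has a prior count of 2. Implied length, the count divided by FPKM and library total, was tested with limma 3.58.1. Permutation tests covered all splits of 5 against 7 mice. Coordinates and exons are from GENCODE M21, promoters from RefSeq, and amino acid identity from the longest reading frames of GENCODE transcripts (Biopython 1.88). The deposited table marks *Slc7a5*, *Slc7a11* and *Slc6a9* as confounded. It also marks *Tg* and, among the other transporters named, *Slc7a7*, *Slc7a10*, *Slc1a2*, *Slc6a19* and *Slc43a2*. The fits were also run on data simulated with the spread seen here, drawn independently for each mouse. Such data hold no differences in cell make-up and no outlying mice, so that run cannot test the fits for these.

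The 10 genes and all lists were chosen with earlier results of these data known. Genes named are the 10, *Tg*, each called transporter of the lists, and the 3 genes most like *Slc7a3*, *Slc7a5* and *Slc7a8* (average log2 CPM of at least 1). Alternatives were DESeq2 1.42.0, other scalings and filters, B6NCrl controls only, *Xist* as a covariate, limma on FPKM (log2 with pseudocount 1 or 0.1, genes of mean 0.5 or more, or all genes), and leaving out each mouse. Further fits were chosen after the data were seen, 1 without unaffected replicates 14 and 21 and 1 with the T cell marker mean as a covariate. Marker lists for B cells, C cells, parathyroid, endothelium, fibroblasts and erythrocytes were also counted, with 0, 0, 0, 0, 2 and 0 markers called higher and 0, 0, 0, 1, 0 and 0 called lower, and 1 of 12 follicular cell markers was called in each direction.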

Additional observations from a re-analysis of the deposited data

Results flagged for a closer look

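In 4 of the 32 groups of mice examined, the highest value stood apart from the others by Dixon's criterion. Chance alone meets it in about 1 of 20 groups of independent, normally distributed values. The 32 groups come from the same 12 mice, so the count of 4 is not set against that rate. Unaffected replicate 23 stood apart for *Slc3a2* at 80.0 CPM (next highest 57.5), for *Slc7a5* at 11.0 CPM (next highest 4.70) and for *Slc1a5* at 153 CPM (next highest 123). Affected replicate 1 stood apart for *Slc1a5* at 217 CPM (next highest 145). Without replicate 23 the log2 fold changes of *Slc3a2*, *Slc7a5* and *Slc1a5* were 0.92, 2.67 and 0.35, and without affected replicate 1 that of *Slc1a5* was 0.13.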

How the results depend on the processing

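No called value changed sign. Using only B6NCrl controls is the same fit as leaving out unaffected replicate 14 and is counted once, which leaves 23 alternatives. Other transporters called higher (3) numbered 5 with DESeq2, 1 with library totals without *Tg*, 1 with unfiltered log2(FPKM + 1), and 2 to 6 with a mouse left out, 6 without affected replicate 4. Those called lower (3) numbered 5 with DESeq2, 5 without *Tg*, and 2 to 5 with a mouse left out, 5 without affected replicate 4. *Slc7a7*, *Slc38a1* and *Slc6a17* were called in 23 of 23 and *Slc38a7* in 21. Over all genes, calls higher (1500) numbered 604 without *Tg*, 979 and 983 with log2(FPKM + 1) and log2(FPKM + 0.1), 719 without a filter, and 1002 to 1872 with a mouse left out. Calls lower (1199) numbered 620 with unfiltered FPKM, 771 without unaffected replicates 14 and 21, and 746 to 1518 with a mouse left out (775, 772 and 746 without affected 3, affected 5 and unaffected 24). Genes with a different implied length (45) numbered 21 with at least 10 counts, 21 with only B6NCrl controls, and 10 to 38 with a mouse left out, fewest without affected replicate 5. The causes were not tested. No paired analysis was possible because the groups share no replicate numbers. *Slc7a3* had as few as 3 counts in an unaffected mouse, which limits its fold change.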
